A study of Mus musculus with 3 samples.

Results

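Ser5-phosphorylated Pol_II (Ser5) was followed inside protein-coding genes of mouse macrophages, at the gene-body peaks that appeared after 2 h of LPS. LPS, lipopolysaccharide, is the bacterial cell wall component that macrophages sense through Toll-like receptor 4. The 6565 gained gene-body peaks made up 13.3% of the 49371 peaks of the LPS library on chromosomes 1 to 19 and X. A peak was chosen when it overlapped no peak of the untreated library, overlapped a protein-coding gene, and lay more than 1 kb from every start of a coding transcript. It also had to hold at least 15 LPS tags, with a depth-scaled LPS level at least 2 times the untreated one (0 tags set to 0.5). Of the LPS peaks, 21423 overlapped no untreated peak, 17584 of these overlapped a coding gene, 16429 of these lay more than 1 kb from every coding start, and 7293 of these held at least 15 tags. The last limit removed 728 peaks. Since the contrast of LPS against untreated chose the peaks, the ratio of each gained peak describes the selection and is not a finding.

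There were 3 libraries, each a single one of its condition. Ser5 ChIP-Seq was made from primary bone marrow-derived macrophages of female Fvb mice (Fvb/Hsd in the study's methods), either untreated or kept with LPS at 10 ng/ml over 2 h, and the input came from untreated cells. For Ser5 the labels name LPS alone, and the study's text speaks of LPS-treated cells. The study's figure with Ser5 names LPS with interferon-γ, at least for total Pol_II. Whether interferon-γ was also given here could not be settled. Cells were taken on day 7 of culture in L929-conditioned medium, and how many mice were pooled is not stated. With 1 library per condition the spread between cultures is unknown, so no test was made. Every interval given here is a 95% interval. Those of tag counts and ratios cover the counting error of tags only. Those of shares and medians take each peak or gene as a separate draw. Peaks of the same gene are not independent, so the intervals for shares of peaks may be too narrow.

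During initiation the kinase of TFIIH phosphorylates serine 5 of the repeats in the tail of the largest Pol_II subunit. The mark is therefore densest just downstream of promoters, and part of it stays on the polymerase as it moves through the gene. In macrophages LPS acts through MyD88 and TRIF to activate NF-κB, AP-1 and IRF3, which induce cytokines, feedback inhibitors, effector enzymes and, through interferon-β, interferon-stimulated genes.

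The libraries held 7616771 (untreated), 6249819 (LPS) and 7533308 (input) tags on the chromosomes used, so that 1 tag is worth 0.131, 0.160 and 0.133 TPM (tags per 1000000 tags on these chromosomes), respectively. The tags span 45, 30 and 36 bases; the LPS library thus has the shortest reads as well as the fewest, and the part of this in the results was not tested. The study's methods give the lengths of the Ser5 libraries the other way round, so that the labels alone cannot settle whether the libraries were exchanged. The starts of Nos2, Il12b and Ptgs2 had 23, 0 and 15 tags in the library labelled untreated and 353, 68 and 343 in that labelled LPS. That of Ccl5 had 10 and 1469. As the starts of these LPS response genes were higher in the library labelled LPS, the labels were kept. All 8 macrophage markers exceeded the input within 500 bp of their starts in both Ser5 libraries, with summed levels of 411 TPM in untreated cells, 357 TPM after LPS and 14.3 TPM in the input. The T cell, B cell, fibroblast and erythroid markers summed to between 0.263 and 3.02 TPM in the Ser5 libraries, at or below the input sums of 1.46 to 3.98 TPM. Singly, the B cell markers Cd79a and Cd79b exceeded the input in untreated cells (1.44 and 1.05 TPM against 0.531 and 0.664), as did Col1a2 with 1 tag against 0. None of the markers of these cell types exceeded it after LPS. The 5 neutrophil markers summed to 2.63 TPM untreated and 7.20 TPM after LPS against 3.58 TPM in the input, of which Camp, the gene of cathelicidin, made 6.24 TPM after LPS while Ly6g had 0 tags in both Ser5 libraries.

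The sequences of 300 bases around the summits of the gained peaks with the highest lower limits of the ratio are shown first, since these peaks carry the clearest rise over counting error. One peak per gene was taken. Of the 8 windows chosen, those in Ptgs2 and Gbp2 lie in untranslated exons and are not printed. All windows are from the reference sequence of mm9, which is not that of Fvb mice, and run 5′ to 3′ on the plus strand. Capitals mark matches to any of 10 short motifs that were searched on both strands, as listed further on.

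Gbp5: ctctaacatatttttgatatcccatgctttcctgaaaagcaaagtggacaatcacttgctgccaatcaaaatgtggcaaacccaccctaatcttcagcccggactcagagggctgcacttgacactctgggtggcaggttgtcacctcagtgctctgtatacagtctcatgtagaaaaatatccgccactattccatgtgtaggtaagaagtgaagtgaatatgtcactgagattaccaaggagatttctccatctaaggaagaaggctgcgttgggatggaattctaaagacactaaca
Cd69: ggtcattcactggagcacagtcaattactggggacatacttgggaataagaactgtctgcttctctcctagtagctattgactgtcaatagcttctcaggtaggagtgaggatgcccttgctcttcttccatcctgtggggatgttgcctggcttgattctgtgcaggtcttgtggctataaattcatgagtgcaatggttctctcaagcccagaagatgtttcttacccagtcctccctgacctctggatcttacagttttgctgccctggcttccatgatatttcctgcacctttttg
Cmpk2: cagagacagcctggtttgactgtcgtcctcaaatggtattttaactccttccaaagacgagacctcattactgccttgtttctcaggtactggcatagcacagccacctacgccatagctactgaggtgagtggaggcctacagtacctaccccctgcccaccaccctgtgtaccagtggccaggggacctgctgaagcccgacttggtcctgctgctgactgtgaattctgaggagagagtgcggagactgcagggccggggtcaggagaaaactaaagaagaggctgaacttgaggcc
Nos2: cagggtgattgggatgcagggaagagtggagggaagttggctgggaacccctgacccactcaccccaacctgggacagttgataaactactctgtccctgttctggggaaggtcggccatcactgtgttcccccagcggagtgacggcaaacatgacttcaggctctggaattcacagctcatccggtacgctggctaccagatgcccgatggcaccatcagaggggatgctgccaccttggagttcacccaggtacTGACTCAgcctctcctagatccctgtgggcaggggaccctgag
Il12b: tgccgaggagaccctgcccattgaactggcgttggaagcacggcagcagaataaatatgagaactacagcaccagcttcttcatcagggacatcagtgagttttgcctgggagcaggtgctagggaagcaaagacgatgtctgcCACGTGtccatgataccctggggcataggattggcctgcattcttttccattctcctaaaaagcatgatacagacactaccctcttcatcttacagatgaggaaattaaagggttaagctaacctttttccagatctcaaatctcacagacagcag
Tnfrsf8: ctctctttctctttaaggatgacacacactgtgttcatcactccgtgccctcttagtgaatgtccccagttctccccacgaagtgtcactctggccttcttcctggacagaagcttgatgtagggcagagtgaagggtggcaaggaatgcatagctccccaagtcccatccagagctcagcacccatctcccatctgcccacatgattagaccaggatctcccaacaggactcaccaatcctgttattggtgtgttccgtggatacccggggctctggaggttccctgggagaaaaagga

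The Gbp5 window, in an intron of a guanylate-binding protein gene, lies at chr3:142183471-142183770, and the Cd69 window, just beyond the annotated end of the gene of an early activation antigen, lies at chr6:129216819-129217118. The window in Cmpk2, which encodes a mitochondrial nucleotide kinase, lies at chr12:27161785-27162084 with 214 of its bases in a coding exon. The window in Nos2, the inducible nitric oxide synthase, lies at chr11:78750952-78751251 with 142 coding bases and 1 AP-1 match. Il12b encodes the p40 subunit of interleukin-12 and interleukin-23, and its window lies at chr11:44223757-44224056 with 95 coding bases and 1 E-box match. The window in Tnfrsf8, the gene of CD30, is at chr4:144863951-144864250 with 65 coding bases. The Gbp5, Cd69, Cmpk2 and Tnfrsf8 windows held no match to any of the motifs, which says only that these letters are not in these windows.

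Summits of 4 gained peaks that were the only one of their gene follow, chosen after the values had been seen as those with the highest lower limits whose window held an NF-κB, ISRE or AP-1 match, because such isolated peaks carried these motifs more often than the rest (given further on).

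AW112010: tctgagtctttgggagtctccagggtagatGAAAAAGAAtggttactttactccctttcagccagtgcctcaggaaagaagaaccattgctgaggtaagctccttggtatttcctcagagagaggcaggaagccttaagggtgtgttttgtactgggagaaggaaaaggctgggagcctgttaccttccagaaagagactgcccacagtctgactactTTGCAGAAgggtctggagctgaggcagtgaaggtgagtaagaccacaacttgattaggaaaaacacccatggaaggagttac
Sox5: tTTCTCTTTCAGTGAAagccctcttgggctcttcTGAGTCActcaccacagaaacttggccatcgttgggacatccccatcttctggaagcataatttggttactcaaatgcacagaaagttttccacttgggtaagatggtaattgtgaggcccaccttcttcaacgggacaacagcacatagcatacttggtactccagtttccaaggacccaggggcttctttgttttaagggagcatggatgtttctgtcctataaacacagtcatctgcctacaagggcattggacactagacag
Nudt3: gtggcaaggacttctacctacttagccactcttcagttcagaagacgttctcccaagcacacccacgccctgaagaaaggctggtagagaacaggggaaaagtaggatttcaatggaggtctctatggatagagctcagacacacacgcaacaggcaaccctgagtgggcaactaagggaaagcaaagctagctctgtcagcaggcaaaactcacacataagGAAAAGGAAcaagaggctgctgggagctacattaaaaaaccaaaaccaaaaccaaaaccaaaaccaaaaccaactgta
Pla2g16: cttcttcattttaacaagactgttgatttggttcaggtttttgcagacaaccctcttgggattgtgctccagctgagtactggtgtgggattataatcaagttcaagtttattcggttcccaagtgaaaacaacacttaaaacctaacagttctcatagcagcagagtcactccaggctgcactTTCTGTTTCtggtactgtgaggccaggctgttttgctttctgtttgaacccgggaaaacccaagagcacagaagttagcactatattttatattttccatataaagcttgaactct

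These windows lie at chr19:11123019-11123318 in AW112010, at chr6:144637762-144638061 in Sox5, which encodes an HMG-box transcription factor, at chr17:27728658-27728957 in Nudt3, a diphosphoinositol polyphosphate phosphohydrolase gene, and at chr19:7633175-7633474 in Pla2g16, a phospholipase gene. All 4 are intronic. The capitals mark an ISRE and a C/EBP match in AW112010, overlapping ISRE and STAT matches followed by an AP-1 match in Sox5, and an ISRE match each in Nudt3 and Pla2g16.

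The gained peaks were short and mostly close to the tag limit. Their median length was 516 bp, between 148 and 4688 bp. After LPS they held a median of 23 tags (lowest 15, quartiles 18 and 35, highest 1364), against 7 tags untreated (quartiles 4 and 11, highest 74) and 3 tags in the input (quartiles 2 and 6, highest 49). Most were thus not empty before treatment: 199 of 6565 (3.03%) had 0 untreated tags, and the untreated level exceeded the input in 4845 (73.8%). Summed over all gained peaks, 54873 untreated tags, 218673 LPS tags and 28765 input tags gave a level of 1.89 times the input untreated (interval 1.86 to 1.91) and 9.16 times the input after LPS (interval 9.05 to 9.28). The authors called the LPS peaks against this input, so the latter follows in part from being a peak.

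By the selection, the ratio of LPS to untreated was at least 2 in each. It had a median of 4.51 (interval 4.39 to 4.57), quartiles of 3.05 and 7.72 and a highest value of 273 with 0 tags set to 0.5, and the summed tags gave a ratio of 4.86 (4.81 to 4.90). Ratios of 2 to 4 were found in 2847 peaks (43.4%), of 4 to 8 in 2134 (32.5%), of 8 to 16 in 872 (13.3%) and of 16 or more in 712 (10.8%). Counting error alone left many ratios loosely fixed: the lower limit was at least 2 in 2953 peaks (45.0%) and above 1 in 6257 (95.3%). As background, 35.7% of the 32160 LPS peaks with at least 15 tags anywhere in the genome, and 90.0% of the 7293 new gene-body peaks with at least 15 tags, reached a ratio of 2.

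**Figure D1:**
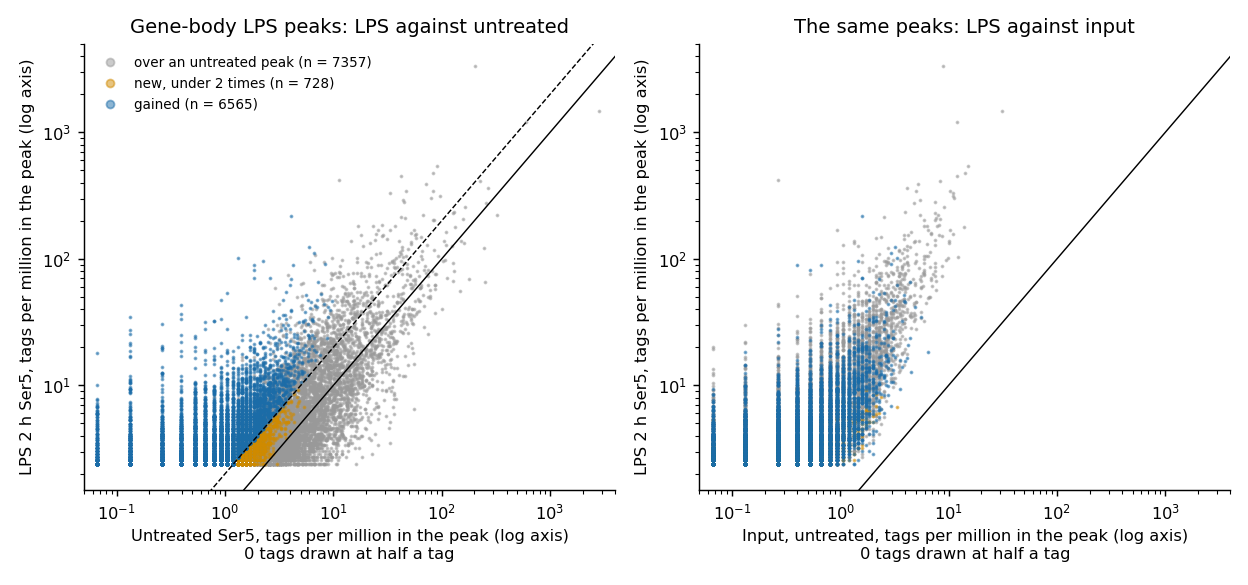
TPM in each gene-body LPS peak after LPS (vertical axis) against untreated Ser5 (left) and input (right), both axes logarithmic, with 1 point per peak and with the solid line marking equality and the dashed line a ratio of 2. The 6565 gained peaks lie above the dashed line by their selection and overlap in LPS level with the 7357 gene-body peaks over an untreated peak, and their LPS level exceeded the input in all 6565.

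At the limits, the gained peaks passed into the rest without a gap. Just inside the limit of 15 tags lay peaks in Dst (3 untreated tags), Arid5a (0 tags) and Nab1 (4 tags), and just outside it, with 14 LPS tags, peaks in Tcea1 (1 untreated tag), Vcpip1 (8 tags) and again Dst (2 tags). Just inside the limit of 2 lay peaks in Rgl1, Stom and Ctnnd1, each with 14 untreated and 23 LPS tags. Their ratio of 2.00 has an interval of 0.987 to 4.21. Just outside it lay peaks in Tnfrsf11a, Zcchc2 and Slc23a2, each with 11 untreated and 18 LPS tags (ratio 1.99).

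The mean level around the summits was taken within 3 kb to either side. In the 100 bp after the summit the mean was 1.08 TPM after LPS, 0.213 TPM untreated and 0.100 TPM in the input. At the edge of the window, 2950 bp towards the gene end, it was still 0.517 TPM after LPS and 0.177 TPM untreated, against 0.0762 TPM in the input. Since summits were aligned on the highest pile-up, a maximum at the centre is given, and the flanks include other gained peaks, which lay within 5 kb for 76%. Gene-body peaks over an untreated peak had 1.68 TPM after LPS and 1.28 TPM untreated beside the summit, and the edge of their window held 0.567 and 0.480 TPM. Peaks lost after LPS, chosen by the mirrored rule (n = 5097), held 0.218 TPM after LPS and 0.940 TPM untreated beside the summit.

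**Figure D2:**
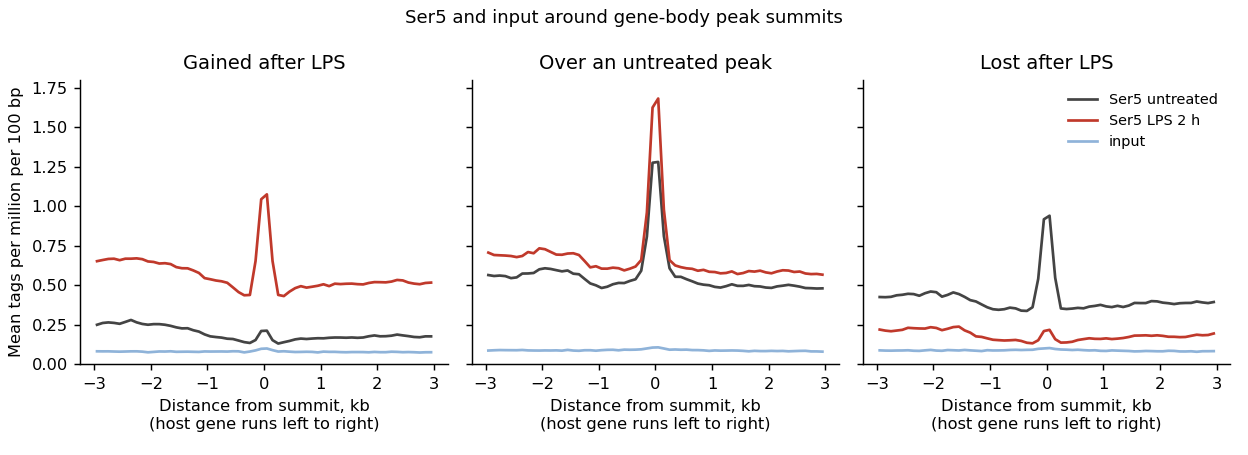
Mean TPM per 100 bp (vertical axis) against the distance from the peak summit in kb (horizontal axis, host gene running left to right) for gained gene-body peaks, gene-body peaks over an untreated peak and gene-body peaks lost after LPS, with 1 line per library. The gained peaks have an LPS mean of 0.517 TPM and an untreated mean of 0.177 TPM at the right edge, and the summit itself was used to align the peaks.

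The 12 gained peaks with the highest lower limits lay in Gbp5, Cd69, Cmpk2, Nos2, Il12b, Ptgs2, Gbp2, Tnfrsf8 and Oasl1. The leading one was in Gbp5, a guanylate-binding protein of cell-autonomous immunity. It held 1 untreated tag and 218 LPS tags, with 15 in the input (ratio 266, interval 47.2 to 10541). A second Gbp5 peak, in the first intron, went from 3 to 268 tags. Cd69 held 10 untreated and 635 LPS tags at a peak whose summit lay beyond the annotated gene end (ratio 77.4, interval 41.8 to 162) and 3 and 209 tags at one in its first intron. Nos2 held 1 and 170 tags at a peak over coding exons (ratio 207, interval 36.7 to 8231) and 1 and 134 tags at another further downstream. Several of these peaks had 1 to 3 untreated tags, so the lower limits and not the ratios order the peaks.

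Il12b had 0 untreated and 112 LPS tags, with 13 input tags, at a peak in intron 5. With 0 set to a floor of 3 tags the level was 45.5-fold higher, and the lower limit of the ratio was 36.4. Ptgs2, the inducible cyclooxygenase of prostaglandin synthesis, held 1 and 159 tags (ratio 194, interval 34.3 to 7701). Gbp2 held 2 and 191 tags (ratio 116, interval 31.8 to 968). Each of these sat in the 3′ part of its gene, at 74.0%, 86.0% and 98.2% of the way from the start. Oasl1, a 2′-5′ oligoadenylate synthetase-like protein, had 14 and 557 tags at its strongest peak (ratio 48.5, interval 28.7 to 89.3). Tnfrsf8 held 3 and 228 tags in intron 12 (ratio 92.6, interval 31.3 to 452), while the window at its annotated start had 1 untreated and 0 LPS tags.

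Ordered by density instead, the first was a peak in Cmpk2 with 31 untreated, 1364 LPS and 12 input tags over 3004 bp, 72.7 TPM per kb after LPS (ratio 53.6, interval 37.6 to 79.2). This was the gained peak with the most tags. The other Cmpk2 peak, at the end of the gene, held 50.4 TPM per kb, and peaks in Oasl1 and Ifit1, an interferon-induced RNA-binding protein, held 40.8 and 41.4 TPM per kb after LPS. The Ifit1 summit lay beyond the annotated gene end, with 45 untreated and 778 LPS tags (ratio 21.1, interval 15.6 to 29.1). Ctsc, the gene of cathepsin C, held a pair of peaks with 38.8 and 37.4 TPM per kb, with ratios of 15.7 and 11.5. The remaining 2 of the 8 densest were annotated to Mrpl39, a mitochondrial ribosomal protein gene, and are described with the peaks whose host promoter had a ratio of at most 1.

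Gained peaks were spread along genes. The summit was in an intron for 5738 (87.4%, interval 86.6 to 88.2), in a coding exon for 450 (6.85%), in an untranslated exon for 320 (4.87%) and outside coding genes for the 57 whose peak only reached into a gene (0.868%). Of all gene-body bases more than 1 kb from coding starts 94.3% were intronic and 5.75% exonic. Among gene-body peaks over an untreated peak 74.2% of summits were intronic (interval 73.2 to 75.2), and among peaks lost after LPS 78.7% (77.5 to 79.8). The gained peaks thus had the highest intronic share of the 3 groups and the lowest share close to the gene end. The intervals take peaks as separate draws, although many gained peaks shared a gene.

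Split into 5 equal parts from its start, the gene held 17.2%, 19.6%, 19.7%, 19.7% and 23.8% of the gained summits that lay inside their gene (n = 6508). The last of these parts held 31.1% for peaks over an untreated peak (interval 30.0 to 32.2) and 31.5% for lost peaks (30.2 to 32.8), against 23.8% (22.8 to 24.9) here. The median gained summit was 30545 bp from the gene start, 53.7% of the way along. First introns held 25.8% of gained summits (interval 24.8 to 26.9), next to 22.3% of peaks over an untreated peak and 23.9% of lost ones. As shares of the summits in a numbered intron of the longest coding transcript these are 30.1%, 30.9% and 31.1%, and their intervals overlap. Only 80 gained peaks (1.22%) lay within 1 kb of an annotated start of a non-coding RNA.

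The gained peaks were gathered in few genes. They fell in 1416 host genes, and 7.42% of the 19060 coding genes over 2 kb long held at least 1. One peak was found in 718 hosts, 2 in 220, 3 in 120, 4 to 9 in 205, and 10 or more in 153. These 153 genes, a share of 10.8% of the hosts, held 3881 gained peaks (59.1%, interval 57.9 to 60.3), and the first 100 genes in this order held 50.0%. Another gained peak lay within 5 kb of 4987 peaks (76%), and 639 (9.73%) lay more than 50 kb from any other. Host genes were longer than the rest, with a median of 39802 bp against 20654.5 bp for all coding genes over 2 kb, and those with 10 or more peaks had a median of 65729 bp. A longer gene offers more room for a peak, and the part of length in these counts was not tested.

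Lass6, which encodes a ceramide synthase, held 197 gained peaks over 54.9% of its length. They summed to 893 untreated, 7138 LPS and 865 input tags, so that the untreated level was close to the input and the LPS level was 9.74 times higher (interval 9.09 to 10.5). The first summit lay 1.24% and the last 100% of the way along the gene. Nfkb1, which encodes the p105 precursor and the p50 subunit of NF-κB, held 75 peaks over 75% of its length, with 1044 untreated, 5560 LPS and 607 input tags (ratio 6.49, interval 6.07 to 6.94). Ratios of single Nfkb1 peaks ran from 2.29 to 43.9. Outside the gained peaks, the rest of the body had ratios of 7.31 (6.48 to 8.28) in Lass6 and 5.02 (4.38 to 5.76) in Nfkb1.

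Arid5b, a chromatin-associated DNA-binding protein, held 113 peaks (826 untreated and 3259 LPS tags, ratio 4.81, interval 4.45 to 5.2). Mitf, a transcription factor of the macrophage and osteoclast lineage, held 93 (713 and 2527 tags, ratio 4.32, 3.97 to 4.70). Aoah, whose product acyloxyacyl hydrolase removes acyl chains from LPS, held 77 (877 and 3196 tags, ratio 4.44, 4.12 to 4.79). Foxp1, a forkhead transcription factor, held 78 (726 and 2975 tags, ratio 4.99, 4.60 to 5.42), and Pid1 held 75 (1138 and 2986 tags, ratio 3.20, 2.99 to 3.43). Among these, Pid1 had the lowest ratio and, at 2.01 to 14.6, the narrowest range of single peaks.

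Dock10, a guanine nucleotide exchange factor, differed in layout. Its 68 peaks held 470 untreated and 1975 LPS tags (ratio 5.12, interval 4.63 to 5.68), and the first lay 33.6% of the way along the gene. Within 500 bp of its annotated start 109 untreated and 46 LPS tags were counted, a ratio of 0.514 (interval 0.356 to 0.732). The annotated start of Foxp1 was nearly empty, with 6 and 5 tags (ratio 1.02, 0.245 to 3.99), and its first gained peak lay at 18% of its length. Of the 153 genes with 10 or more gained peaks, 95 had the first within the first 10% of the gene, 122 had the last within the last 10%, and 26 had none in the first 20%.

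**Figure D3:**
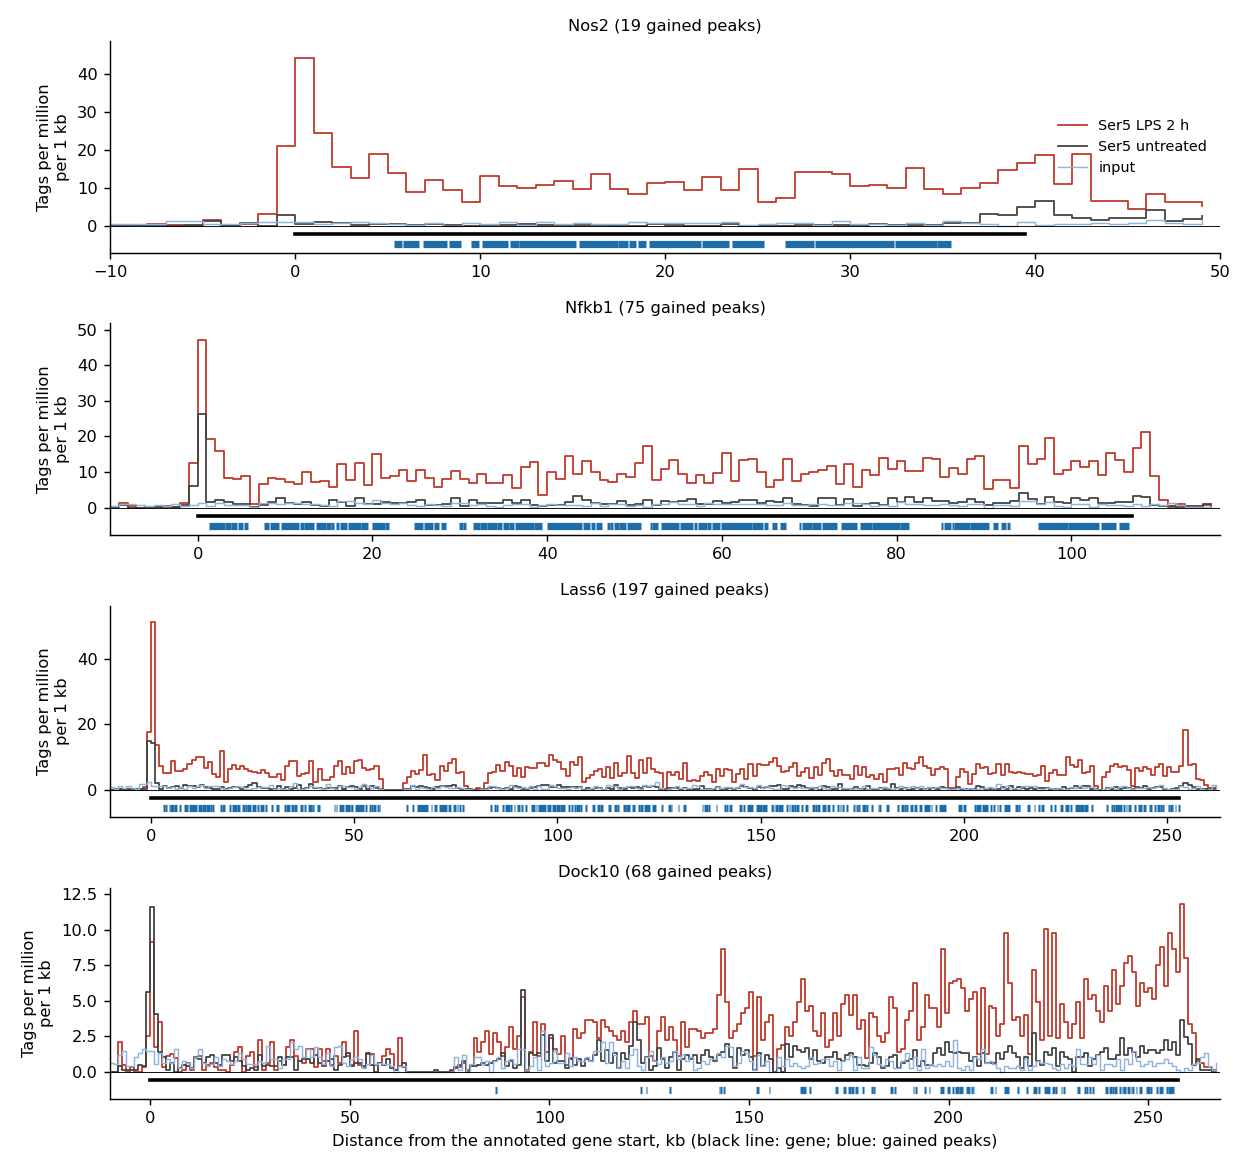
TPM per 1 kb (vertical axis) along Nos2, Nfkb1, Lass6 and Dock10 against the distance from the annotated gene start in kb (horizontal axis), with lines for the 3 libraries, a black bar for the gene and blue bars for its gained peaks. In Nos2, Nfkb1 and Lass6 the gained peaks run through the gene behind a higher promoter, whereas in Dock10 they begin 33.6% of the way along and the annotated start has a ratio of 0.514.

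Beyond the gained peaks themselves, the question was whether the rest of the host gene moved with them. The window within 500 bp of the annotated start and the gene body from 1000 bp on, with all gained peaks taken out, were counted wherever the 2 Ser5 libraries together held 10 tags or more. Only the outermost annotated start of each gene was used. Tags at coding starts further inside a gene therefore count towards its body. These windows were not used by the rule, although they share libraries with it. Of 1298 host promoters 216 (16.6%, interval 14.7 to 18.8) were at least 2 times higher after LPS, against 4.77% of 11641 coding genes, and 39 (3.0%) at least 2 times lower, against 14.2%. The rest of the body was at least 2 times higher in 416 of 1413 hosts (29.4%, interval 27.1 to 31.9) against 6.14% of 16442 genes, and at least 2 times lower in 18 (1.27%) against 12.1%. Host genes were thus higher after LPS more often than coding genes at large, in the body more than at the promoter.

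Genes with more gained peaks had higher ratios. With 10 or more the median ratio was 2.63 in the rest of the body (interval 2.40 to 2.96, n = 153) and 1.68 at the promoter (1.52 to 1.82, n = 147). With 2 to 9 the medians were 1.72 (1.64 to 1.81, n = 543) and 1.26 (1.2 to 1.33, n = 506), and with a single one 1.15 (1.11 to 1.21, n = 717) and 1.04 (1.00 to 1.08, n = 645). Coding genes without a gained peak had medians of 0.853 and 0.794. The order holds in both windows with no overlap of the intervals. Because a gene that rises as a whole passes the limits of the rule at more of its peaks, the number of gained peaks is not independent of the size of the rise.

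**Figure D4:**
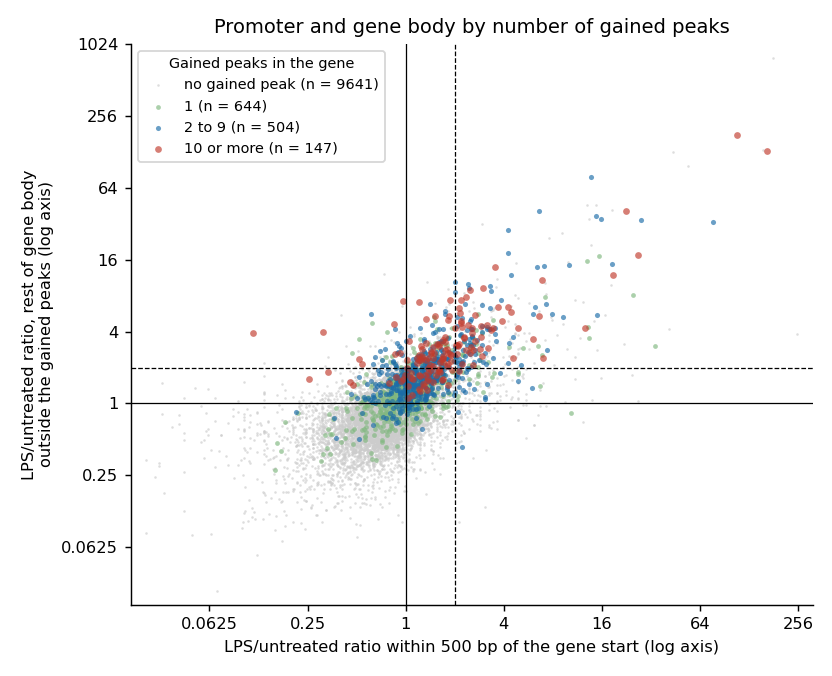
The LPS/untreated ratio of the rest of the gene body outside the gained peaks (vertical axis) against that within 500 bp of the gene start (horizontal axis), both logarithmic, with 1 point per coding gene coloured by its number of gained peaks and dashed lines at a ratio of 2. Genes with 10 or more gained peaks have medians of 2.63 in the body and 1.68 at the start, and genes without one lie around 0.853 and 0.794.

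Host genes were also described along their length, with the gained peaks counted in, so that these values are not independent of the choice of genes. From 1 kb after the start, 5 equal parts of the genes with 10 or more had summed ratios of 2.79, 2.90, 2.87, 2.84 and 2.95, and median ratios between 2.94 and 3.04. In genes with 2 to 9 the summed ratios were 1.95, 1.79, 1.78, 1.78 and 1.68. Genes without one had summed ratios that ran from 0.872 in the first part to 0.815 in the last.

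Of the 6203 gained peaks whose host promoter and rest of body were both measured, 1879 (30.3%) lay in genes where both were at least 2 times higher, and 1912 (30.8%) in genes where the rest of the body was while the promoter was not. In 2303 (37.1%) neither reached 2, and in 109 (1.76%) the promoter alone did. A further 352 gained peaks lay in 118 host genes with under 10 tags at the annotated start. These shares count peaks, so genes with many gained peaks weigh more in them. Counted by gene, 875 of the 1295 hosts with both windows measured (67.6%) reached 2 in neither. Both windows did in 174 of these hosts, the rest of the body alone in 207 and the promoter alone in 39. For peaks whose host promoter was measured and stayed under 2 times, 214 of 4215 (5.08%, interval 4.45 to 5.78) had another coding promoter that reached 2 times within 50 kb. This was close to the 5.45% (4.90 to 6.05) of the 6078 gene-body peaks over an untreated peak whose host promoter also stayed under 2 times.

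Some strong gained peaks sat in hosts whose promoter window, at the outermost annotated start, was not higher after LPS. Other starts of these genes were not measured as promoters. In Mrpl39 a peak at the gene end held 17 untreated and 606 LPS tags, with 11 in the input (ratio 43.4, interval 26.9 to 75.1), and a second, reaching past the gene end, held 32 and 564 tags (ratio 21.5, 15 to 31.7). The Mrpl39 promoter had 115 untreated and 81 LPS tags (ratio 0.858). Mrpl39 runs on the minus strand, and the second peak, chr16:84715810-84717862, began 1393 bp from the middle of Mir155, the precursor of a microRNA induced by Toll-like receptors, which the annotation places on the plus strand at chr16:84714385-84714449. A longer non-coding RNA record of Mir155 on the plus strand spans chr16:84713268-84715487 and ends shortly before this peak begins. ChIP does not tell strands apart, so these tags could not be assigned to either gene.

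Hivep3, a large zinc finger protein gene with 59 gained peaks, had 225 and 100 tags at its annotated start (ratio 0.542). Its strongest peak went from 0 untreated to 49 LPS tags in intron 6, 19.9-fold higher with 0 set to 3 tags (lower limit 15.6). Another went from 0 to 39 tags, 15.8-fold higher on the same floor (lower limit 12.3). Arhgef3, another exchange factor gene with 38 gained peaks, had 21 and 2 tags at its annotated start (ratio 0.116) and 1 and 59 tags at a peak in intron 2 (ratio 71.9, interval 12.4 to 2888). The nearest coding start to this Arhgef3 peak was 24220 bp away, against 123227 bp to the start that was measured. In both genes the rest of the body was higher, with ratios of 2.13 and 3.87.

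Genes of the LPS response were then taken from 8 lists, chosen with earlier results of these data known. Of 246 listed symbols 243 matched a coding gene of the annotation, where Cxcl11, Cebpd and Tnfrsf5, an older name of Cd40, did not. Of the matched genes 226 were over 2 kb long, and 106 of these (46.9%, interval 40.5 to 53.4) held 1021 gained peaks, against the 7.42% of all coding genes. Conversely, 84.4% of the gained peaks lay outside the listed genes. Among the 106, the promoter was at least 2 times higher in 69 of 103 measured and the rest of the body in 84 of 104, and none were 2 times lower. Of the 120 without a gained peak, the rest of the body was still at least 2 times higher in 49 of 117, and at least 2 times lower in 6. Among the 49 were Ccl5 (9 to 5734 tags), Rsad2 (158 to 12616) and Irg1 (1655 to 28828). The rule needs a peak apart from every coding start and every untreated peak. A share of genes with a gained peak is therefore not a measure of their rise, and the part of gene length in the shares was not tested.

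**Figure D5:**
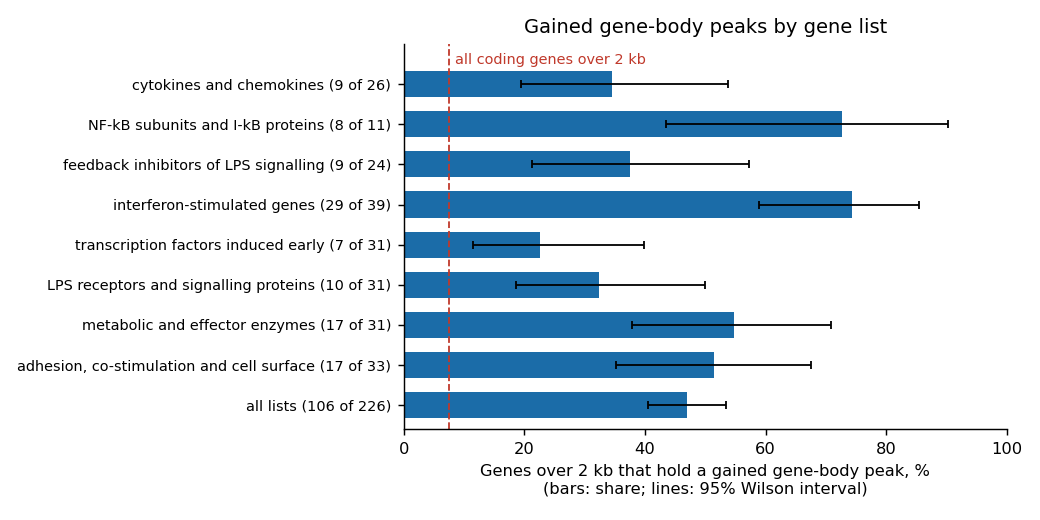
Share of the genes over 2 kb in each list that hold a gained gene-body peak, in % (horizontal axis), with 95% Wilson intervals as lines and the count in brackets, and with a dashed line at the 7.42% of all coding genes over 2 kb. The shares run from 22.6% for early transcription factors to 74.4% for interferon-stimulated genes.

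Interferon-stimulated genes had the highest share, 29 of 39 (74.4%, interval 58.9 to 85.4) with 200 gained peaks. The promoter was at least 2 times higher in 24 of the 29 and the rest of the body in 27. Ifih1, the RNA sensor MDA5, held 34 peaks, the strongest with 1 and 65 tags (ratio 79.2, interval 13.7 to 3176). Herc6 held 17 and Usp18, which removes ISG15 and restrains the interferon receptor, held 13. Mx1 and Mx2, antiviral GTPases, held 2 and 6 peaks, and their bodies outside them were higher 18.1-fold (14.7 to 22.4) and 14-fold (12.4 to 15.9). Trim30a was the one of the 29 with a promoter ratio under 1, at 0.930, and had 1.59 in the rest of the body.

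Of the NF-κB subunits and I-κB proteins 8 of 11 (72.7%, interval 43.4 to 90.3) held gained peaks, 122 in all. After Nfkb1 with 75 came Rel (c-Rel) with 19, Nfkbiz (IκBζ, a nuclear cofactor) with 10, Relb with 5, Rela and Bcl3 with 4 each, Nfkb2 with 3 and Nfkbie with 2. The strongest Nfkbiz peak went from 20 to 440 tags with 12 in the input (ratio 26.8, interval 17.1 to 44.3), and that of Rel from 13 to 125 tags (ratio 11.7, 6.61 to 22.6). Rela had the smallest ratio of the 8 outside its peaks, with a body ratio of 1.66 (1.34 to 2.06), and it is the one whose body did not reach 2.

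Metabolic and effector enzymes held gained peaks in 17 of 31 genes (54.8%, interval 37.8 to 70.8), 251 in all. Slc7a11, the cystine/glutamate exchanger, held 55, the strongest with 1 untreated and 106 LPS tags (ratio 129, interval 22.7 to 5150). Acsl1, a long-chain acyl-CoA synthetase, held 34, Pde4b, a cAMP phosphodiesterase, 23, Marco, a scavenger receptor, 21, and Nampt, of NAD salvage, 20. Nos2 and Cybb, a subunit of the phagocyte NADPH oxidase, held 19 each. The Cybb start as annotated had 0 tags in both Ser5 libraries, and the body outside its peaks was higher 9.09-fold (7.81 to 10.6). Mmp13, a collagenase gene, held 8, of which the strongest had 2 and 124 tags (ratio 75.6, 20.5 to 631).

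Adhesion, co-stimulation and surface proteins held gained peaks in 17 of 33 genes (51.5%, interval 35.2 to 67.5). Cd44, the hyaluronan receptor, held 35 with a promoter ratio of 0.988 and a ratio of 1.72 in the rest of the body. Ptprj held 22, Cd274 (PD-L1) 14 and Cd40 13. The strongest Cd40 peak went from 0 to 42 tags, at least 17.1-fold, and that of Cd274 from 0 to 35 tags, at least 14.2-fold. Msr1, a scavenger receptor, was the one listed host with a lower body after LPS, with 1896 untreated and 1145 LPS tags outside its single gained peak (ratio 0.736, interval 0.683 to 0.792). That Msr1 peak had 14 and 27 tags (ratio 2.35, 1.19 to 4.85).

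Among the feedback inhibitors 9 of 24 genes (37.5%, interval 21.2 to 57.3) held 139 gained peaks, with 46 in Peli1, an E3 ubiquitin ligase, and 25 each in Irak3 (IRAK-M) and Zc3h12c. The body of Peli1 outside its peaks went from 83 to 607 tags, 8.91-fold (7.08 to 11.4), and that of Traf1, with 3 gained peaks, from 266 to 2116 tags, 9.69-fold (8.53 to 11.1). Tnip1 and Tnip3, which bind the ubiquitin-editing enzyme A20, held 13 and 8. Of the LPS receptors and signalling proteins 10 of 31 (32.3%, 18.6 to 49.9) held peaks. Irak2 held 14, Ripk2 13, and Tbk1 and Pik3r5 11 each, whereas Tlr2 and Myd88 held 2 each. The strongest Irak2 peak had 0 untreated and 26 LPS tags over 202 bp, 10.6-fold higher with 0 set to 3 tags.

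Cytokines and chemokines held gained peaks in 9 of 26 genes over 2 kb (34.6%, interval 19.4 to 53.8). Il15 held 13 and Il12b 10. Il6 held 3, the strongest with 4 and 116 tags (ratio 35.3, 13.4 to 132), Il27 and Ebi3, which encode the subunits of interleukin-27, held 2 each, and Il10 held 1 with 6 and 20 tags (ratio 4.06, 1.57 to 12.4). Among the 17 without a gained peak, 13 of 16 measured bodies were still at least 2 times higher. The transcription factors induced early had the lowest share, 7 of 31 (22.6%, 11.4 to 39.8), with 83 peaks. They were Hivep3, described above, with 59 peaks, Hivep1 with 11, Klf7 with 7, Hivep2 and Hif1a with 2 each, and Stat3 and Batf with 1 each. Of the 24 early factors without a gained peak, 4 of 22 measured bodies were at least 2 times higher and 4 at least 2 times lower.

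The 718 gained peaks that were alone in their gene were weaker. They had a median of 19 LPS tags and a median ratio of 3.43, against 26 tags and 5.08 in genes with 10 or more, and the lower limit was at least 2 in 20.5% (interval 17.7 to 23.6) against 54.5% (53.0 to 56.1). A coding start lay within 5 kb of 267 of them (37.2%), against 11.2% of the peaks in genes with 10 or more. The strongest, in AW112010, went from 5 to 197 tags with 15 in the input (ratio 48.0, interval 20.2 to 150), and its gene start from 4 to 81 tags. The peak in intron 12 of Itgb8, an integrin subunit gene, went from 1 to 68 tags (ratio 82.9, 14.4 to 3321). The lone peaks named here were picked after their values had been seen.

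In Nudt3 and Pla2g16 the ratio at the start was near 1, at 0.938 and 1.07. The Nudt3 peak held 3 untreated, 41 LPS and 5 input tags (ratio 16.7, interval 5.31 to 84.1), next to a promoter with 187 and 144 tags and a ratio of 0.953 (0.819 to 1.11) in the rest of the body. The Pla2g16 peak held 1 and 25 tags (ratio 30.5, 4.99 to 1251) next to a promoter with 84 and 74 tags and a ratio of 1.8 (1.39 to 2.34) in the rest of the body. Some lone peaks rested on repeated tags. The Gpr98 peak of 153 bp held 26 LPS tags at 10 distinct positions and strands and 0 tags in the other libraries, and the Arhgap42 peak of 148 bp 16 tags at 6. The Nudt3 peak kept 34 of 41 tags, the Pla2g16 peak 20 of 25 and the Sox5 peak 15 of 20 when repeats were counted once. The Sox5 peak, near the tag limit, had 0 untreated and 5 input tags. Its gene start held 9 untreated and 22 LPS tags, and the rest of the body had a ratio of 1.24 (1.13 to 1.37).

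The base composition of the gained peaks differed from that of other peaks. Their windows of 300 bp had a median of 47.0% G+C (interval 47.0 to 47.3), below the 51.0% of gene-body peaks over an untreated peak, the 51.7% of lost peaks and the 62.7% of LPS peaks within 1 kb of a coding start. CpG dinucleotides numbered 1.23 per 100 bp on average, against 1.72, 1.62 and 7.25. Within the gained peaks the median fell from 48.0% at ratios of 2 to 4 to 45.7% (45.0 to 46.3) at ratios of 16 or more. Tag length and depth differ between the libraries, and their part in this was not tested.

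The motifs were searched on both strands as NF-κB (GGGNNTTTC), PU.1 (GAGGAAGT), AP-1 (TGANTCA), ISRE (GAAANNGAA), CRE (TGACGTCA), C/EBP (TTGCNNAA), STAT (TTCNNNGAA), RUNX (TGTGGTT), GC box (GGGGCGGG) and E-box (CACGTG), and matches to different motifs may overlap. They name the factor families that bind such letters, of which PU.1 is the macrophage lineage factor and the ISRE is bound by IRF and STAT proteins. The NF-κB letters were in 4.90% of gained windows (interval 4.41 to 5.45), next to 4.81% of peaks over an untreated peak and 4.57% of all 49371 LPS windows. ISRE letters were in 10.4% (9.64 to 11.1) against 8.77% (8.14 to 9.44) of peaks over an untreated peak, 8.95% of all LPS windows and 7.53% (6.84 to 8.29) of lost peaks. C/EBP letters were in 13.8% (13 to 14.7) against 12.3% (11.6 to 13.1), 11.3% and 11.2%. AP-1 letters, in 12% (11.3 to 12.9), were as frequent as in the lost peaks (12%), and were in 12.7% of peaks over an untreated peak and in 10.2% of all LPS windows. STAT and RUNX letters were in 9.23% and 7.86%, against 7.91% and 7.41% of peaks over an untreated peak and 7.91% and 6.53% of all LPS windows. E-box letters were in 5.16%, against 5.18% and 6.07%, and CRE letters in 0.244%, against 0.503% and 0.958%. All LPS windows include promoter peaks, in which AP-1 letters were in 5.24% and CRE letters in 2.45%.

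PU.1 letters went the other way, with 3.44% of gained windows (interval 3.03 to 3.91), 5.93% (5.41 to 6.49) of gene-body peaks over an untreated peak, 5.63% of lost peaks and 4.12% of all LPS windows. The PU.1 share was 4.07% (3.41 to 4.86) at ratios of 2 to 4 and 1.40% (0.765 to 2.57) at ratios of 16 or more. NF-κB letters went from 5.69% (4.90 to 6.60) to 3.79% (2.62 to 5.46). ISRE letters went from 9.73% (8.69 to 10.9) to 11.9% (9.76 to 14.5), and STAT letters from 8.75% (7.76 to 9.84) to 11.1% (8.99 to 13.6). Between these ratio groups the intervals of NF-κB, ISRE and STAT letters overlapped. The G+C share fell over the same groups, and its part in the motif shares was not tested. GC boxes were in 0.914% of gained windows, 2.72% of peaks over an untreated peak and 8.52% of all LPS windows. Windows of the lone gained peaks held NF-κB letters in 7.52% (5.81 to 9.68), ISRE letters in 14.9% (12.5 to 17.7), AP-1 letters in 15.6% (13.1 to 18.4) and PU.1 letters in 5.71% (4.24 to 7.66). In genes with 10 or more gained peaks these were 4.53%, 9.59%, 11.5% and 2.86%, each below the interval of the lone peaks. GC boxes were also more frequent in lone peaks, at 2.09% (1.27 to 3.42) against 0.721%. STAT letters went the other way, at 7.66% against 9.33%, as did E-box and CRE letters. The intervals of STAT, E-box, CRE, C/EBP and RUNX letters overlapped between the groups. More lone peaks lay within 5 kb of a coding start (37.2% against 11.2%). The part of this in the motif shares was not tested. This division by number was made after the values had been seen, and a match describes letters in the reference sequence and not a bound site.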

How the data were processed

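Tags and peaks were used as deposited. Bowtie (version not given in the sources used here) had placed the reads on mm9, and only uniquely matching tags with up to 2 mismatches had been kept. For either Ser5 library the authors ran MACS with the input as control and a p-value limit of 1e-05. The peak lists deposited by the authors carry 1 score per peak, minus 10 times the log10 of its p-value, used only for an alternative. The tag files give a position and strand per aligned tag, duplicates kept. Tag lengths are those of the files, where untreated Ser5 has 45 bases and LPS 30.

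Tags were counted by their 5′ ends on chromosomes 1 to 19 and X and expressed per 1000000 such tags (TPM). Gene models were those of GENCODE M1 (mm9), and a peak over several genes (133 of 6565) was given to the one with the largest overlap. A listed symbol with several gene records took the longest. Summits were the highest pile-up of tags extended to 150 bp. The place of a summit was read from coding transcripts. Intervals are exact Poisson or conditional binomial for counts and ratios, Wilson for shares and order-statistic for medians, all at 95%. Where 0 tags were counted, a floor of 3 tags per library gave the fold, which leaves out the counting error of the LPS tags. Named peaks were the 12 highest lower limits of the ratio, the 8 densest, those of the 8 genes with the most gained peaks, the 5 highest lower limits among hosts with a promoter ratio of at most 1, 3 on each side of both limits, and those in the listed genes. The members and lists were chosen with earlier results of these data known. Python 3.11.15, numpy 2.4.6, pandas 2.3.3 and scipy 1.17.1 were used, with matplotlib 3.10.9 for figures, and the functions for overlaps, counts and intervals were tested on simulated data.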

Additional observations from a re-analysis of the deposited data

How the results depend on the processing

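The 24 alternatives gave 50 recomputed counts, shares and medians, of which 40 stayed within 1.5 times the count or within the interval. A change of direction was looked for only in the median ratios. None of them crossed 1, which for the gained peaks follows largely from the selection. The number of gained peaks went from 6565 to 2213 with at least 30 LPS tags, to 3718 with a ratio of at least 4 and to 2953 with a lower limit of at least 2, and otherwise stayed between 5091 (peaks with p of at most 1e-10 in both lists, of which 4069 were among the 6565) and 6950 (tags moved 75 bp downstream). Scaling by tags that fell in no peak of either list raised every ratio by 0.11 on the log2 scale, which took the median ratio of the gained peaks to 4.85 and those of host promoters and of the rest of the host bodies to 1.24 and 1.59. Counting 1 tag per position and strand gave a median ratio of 4.30 and 5114 gained peaks. With the stricter peak lists 85.3% of summits were intronic and 23.2% in first introns. GC box letters were in 1.25% of windows around peak midpoints. The ratios of all 123 named peaks stayed within their intervals under the 3 alternatives run on them, although those in Stom (1.63 with 1 tag per position) and Ctnnd1 (1.95 with moved tags) went under 2. No paired analysis was possible because each condition had 1 library. Depth limits the peaks near 15 tags most, and the spread between cultures could not be measured.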
